A study of Mus with 6 samples.

Results

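The cell cycle and DNA replication genes are a set of 48 genes. They were chosen by symbol from knowledge of the cycle, with earlier results of these data known. All of them are present among the 18887 genes of the authors' deposited table of normalized counts. They were grouped by role into 8 G1 cyclins and cyclin-dependent kinases (CDKs), 6 members of the E2F-RB axis and CDK inhibitors, 13 S phase genes, and 21 genes of G2 and M phase. The study used RiboTag, in which a tagged ribosomal protein is used to precipitate ribosomes of a chosen cell type with the mRNA on them, here from mouse whole brain with microglia given as the cell type. The groups were 4 precipitates titled IRKO with the genotype KO, and 2 precipitates titled MG with the genotype Ctr. All 6 are immunoprecipitates, and no input library was analysed here. The sources used here do not give the driver of the tag, the deleted allele, age, sex or the number of animals per precipitate. Nor do they say that each sample is a separate animal, so the p-values describe the spread among these 6 precipitates, part or all of which may be technical.

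In the cell cycle, D-type cyclins with CDK4 or CDK6, and then cyclin E with CDK2, phosphorylate the RB protein and release E2F factors, which drive the genes needed for DNA replication. The MCM helicase is loaded on origins by CDC6 and CDT1, and CDK1 with cyclins A and B then drives mitosis, which ends when the anaphase-promoting complex destroys its substrates. Microglia, the resident macrophages of the brain, mostly rest outside the cycle in the healthy adult and renew slowly by division. Many G1 genes are also expressed in cells that do not divide, whereas most G2 and M phase genes are transcribed mainly in dividing cells.

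The libraries held 13858978 to 14568773 recovered reads in IRKO and 16883098 to 19010680 in Ctr. One read was worth 0.972 to 0.991 normalized counts in IRKO and 0.968 to 1.12 in Ctr, so a value of 20 rests on about as many reads. Insr, the insulin receptor gene, had 357, 366, 290.5 and 339.9 normalized counts in IRKO replicates 1 to 4, against 565 and 532 in Ctr, and fell (−0.70 ± 0.135, log2, SE, limma adjusted p = 0.00211). All 22 homeostatic microglia markers rose, with summed normalized counts of 287260 to 405010 in IRKO and 108430 to 135470 in Ctr, and all 14 astrocyte markers fell, with sums of 23701 to 31948 in IRKO and 453770 to 569160 in Ctr. No marker of either list was at 0 in any library. In bulk samples, fewer cells of a type and less RNA per cell cannot be told apart, and the part of these markers in the results on the cycle was not tested. IRKO replicate 3 stood apart from the other IRKO libraries in mitotic genes, a pattern seen after the values were examined so counts are given with and without it.

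Calls among the S phase and G2 and M phase genes were all falls, while the G1 genes split between rises and falls. Of 47 tested members, 17 fell and 3 rose in IRKO, and 27 did not pass the test, so 36.2% fell and 6.38% rose. Among all 14698 genes tested, 29% fell and 26.6% rose at the same threshold, a limma adjusted p under 0.05, which makes 55.6% in either direction. All 4 IRKO values lay below both Ctr values for 18 of the 48 genes, beside 34.8% of all genes, and above both for 3, beside 32.8%. The members' median log2 change was −0.73, beside 0.02 for all genes. Without IRKO replicate 3 the counts were 26 falls and 2 rises, where 4097 of all 14585 genes tested fell and 3643 rose. Leaving out a Ctr library leaves a lone Ctr sample, so medians are compared here in place of counts. The members' median was less negative without Ctr replicate 1 than with all libraries, and more negative without Ctr replicate 2. The all-gene median was 0.011 without Ctr replicate 1 and 0.021 without Ctr replicate 2. Bub1, a kinase of the spindle checkpoint, was the only member not tested, with 1.98 to 7.77 normalized counts in IRKO and 4.84 to 12.4 in Ctr.

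**Figure D1:**
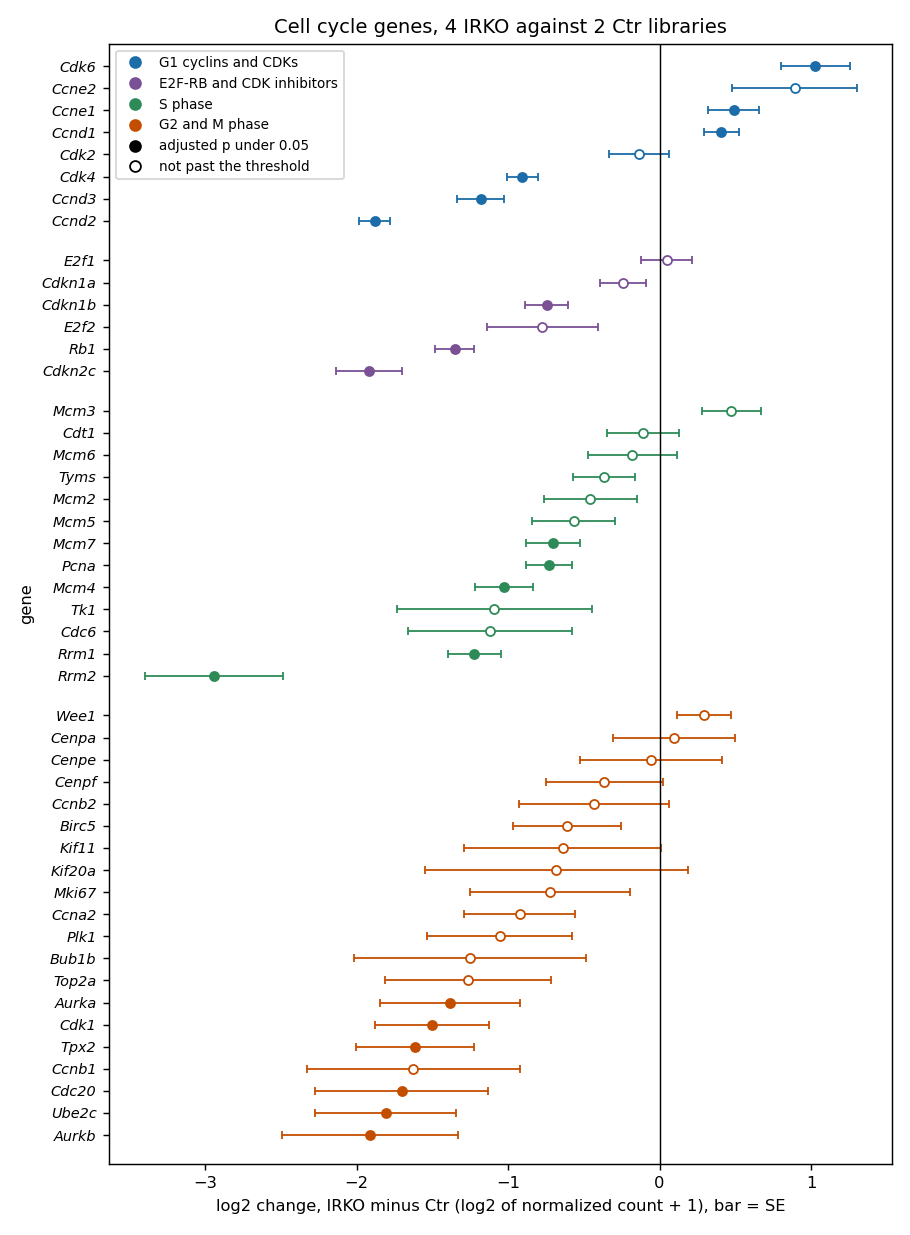
Log2 change of 47 tested genes, 4 IRKO minus 2 Ctr libraries, on the scale log2(normalized count + 1), with bars of 1 SE; filled points passed a limma adjusted p of 0.05. The G1 genes lie on both sides of 0, while Rrm2 (−2.94) has the lowest value and every filled S phase and G2 and M phase point lies below 0. With libraries scaled to the microglia markers the 3 filled points above 0 (Ccnd1, Ccne1 and Cdk6) turn negative.

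The G1 genes moved in opposite directions, and the split ran through the D-type cyclins and their kinases. Of 8 members 3 rose (Ccnd1, Ccne1 and Cdk6), 3 fell (Ccnd2, Ccnd3 and Cdk4), and Ccne2 and Cdk2 did not pass. Rises and falls each make 37.5% of those tested, beside 26.6% and 29% of all genes. The 3 rises turned negative with libraries scaled to the microglia markers, at −1.21, −1.13 and −0.59. That scaling shifts each library as a whole and put the median of all genes at −1.60, so a gene's place relative to other genes is fixed in it.

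Ccnd2 encodes cyclin D2 (GRCm38.p6 chromosome 6, 127125162 to 127152188). It had 609, 609, 612 and 589 normalized counts in IRKO replicates 1 to 4, against 2229 and 2233 in Ctr. The IRKO values lay within a narrow band far below both Ctr values, and the log2 change was −1.88 ± 0.0995 (SE, adjusted p = 9.60e-07). Ccnd3, cyclin D3, had 1719.6, 1337, 1273 and 1561 in IRKO, against 3757 and 2926 in Ctr (−1.18 ± 0.157, adjusted p = 0.000251). Ccnd1, cyclin D1, was the D-type cyclin that rose, with 1780.1, 1980.3, 1747 and 1959 in IRKO, against 1511 and 1308 in Ctr (0.41 ± 0.115, adjusted p = 0.0143). All IRKO values of Ccnd1 lay above both Ctr values, but the call was lost without Ctr replicate 2 (0.30, adjusted p = 0.138).

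The kinase partners of the D-type cyclins divided in the same way. Cdk4, on chromosome 10 from 127063535 to 127067288, had 1022, 1004, 967 and 992 normalized counts in IRKO, against 1981 and 1759 in Ctr, a change of −0.91 ± 0.104 (log2, SE, adjusted p = 0.00011). Cdk6, on chromosome 5 from 3341004 to 3531008, had 94.1, 95.6, 117 and 147 in IRKO, against 54.0 and 54.2 in Ctr, a change of 1.03 ± 0.229 (adjusted p = 0.00442). For both kinases the groups did not overlap, and no omission of a single library ended either call.

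Of the genes of the cyclin E kinase, Ccne1 passed the test, while Ccne2 and Cdk2 did not. Ccne1, cyclin E1, had 219.9, 222, 211 and 167 normalized counts in IRKO, against 139 and 150.1 in Ctr (0.49 ± 0.169, adjusted p = 0.0338). This call was lost when any one library other than IRKO replicate 4 was left out, with adjusted p of 0.0641 to 0.150. Ccne2, cyclin E2, had 44.6, 41.4 and 39.8 in IRKO replicates 1 to 3 and 17.5 in replicate 4, against 19.1 and 16.5 in Ctr (0.89 ± 0.411, adjusted p = 0.092). Replicate 4 was at the level of the Ctr libraries, and without it the change of Ccne2 was 1.19 (adjusted p = 0.0111). Cdk2, the partner of cyclin E, averaged 69.8 ± 4.82 in IRKO (SD, n = 4) and 77 ± 10.4 in Ctr (SD, n = 2) and did not pass (adjusted p = 0.588).

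**Figure D2:**
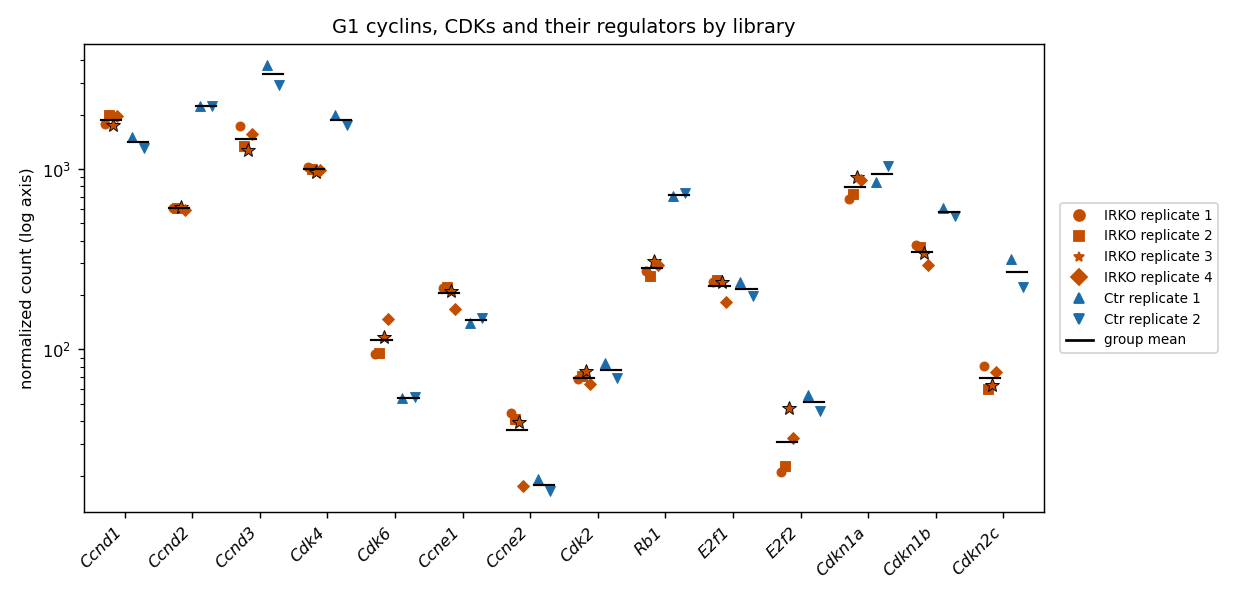
Normalized counts (log axis) of the 14 G1 cyclins, CDKs and regulators in each library, 4 IRKO points left of 2 Ctr points for each gene, with black bars for group means. Ccnd2, Ccnd3, Cdk4, Rb1, Cdkn1b and Cdkn2c have all IRKO points below both Ctr points, and Ccnd1, Cdk6 and Ccne1 have all of them above, before any rescaling to microglia markers, which turns the last 3 changes negative.

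Among the regulators of G1, the pocket protein and a pair of CDK inhibitors fell while the E2F activators did not pass. Of 6 members 3 fell and 0 rose, also 0 at an unadjusted p under 0.05 by limma, edgeR or DESeq2. The falls make 50% of those tested, beside 29% of all genes. Rb1, the retinoblastoma protein that restrains E2F, had 270.4, 255, 309 and 295 normalized counts in IRKO, against 709 and 734 in Ctr (−1.35 ± 0.129, adjusted p = 3.45e-05). Cdkn2c, the p18 inhibitor of CDK4 and CDK6, had 81.2, 60.1, 63.1 and 75 in IRKO, against 317 and 222 in Ctr (−1.92 ± 0.217, adjusted p = 9.72e-05). Cdkn1b, the p27 inhibitor, had 378, 371, 342 and 292 in IRKO, against 604 and 552 in Ctr (−0.75 ± 0.142, adjusted p = 0.00193). In all 3 genes every IRKO library lay below both Ctr libraries, and no call was lost by leaving out 1 library.

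The remaining regulators overlapped between groups. Cdkn1a, the p21 inhibitor induced by p53, had 683, 724, 902 and 869.8 normalized counts in IRKO, against 842 and 1034 in Ctr (−0.24 ± 0.152, adjusted p = 0.2). E2f1, an activating E2F, had 237, 242, 237 and 182 in IRKO, against 235 and 198 in Ctr (0.05 ± 0.169, adjusted p = 0.83), and the sign of this small difference turned without Ctr replicate 2 (−0.075) and with libraries scaled to the microglia markers (−1.57). E2f2 had 20.8, 22.7, 47.6 and 32.1 in IRKO, against 56.2 and 45.5 in Ctr, and passed the test without IRKO replicate 3 (−1.0, adjusted p = 0.0304) and with libraries scaled to the microglia markers (−2.39).

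In S phase, both ribonucleotide reductase subunits, the replication clamp and a pair of helicase subunits fell. Of 13 members 5 fell (Mcm4, Mcm7, Pcna, Rrm1 and Rrm2), 0 rose and 8 did not pass, with a median log2 change of −0.70. The falls make 38.5% of those tested, beside 29% of all genes. At an unadjusted p under 0.05 the rises numbered 1 (Mcm3) by limma, and 1 each by edgeR and DESeq2. Without IRKO replicate 3 the falls numbered 8, with Cdc6 (−1.45), Mcm5 (−0.71) and Tk1 (−1.53) added.

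Rrm2, the small subunit of ribonucleotide reductase and the limiting one for deoxynucleotide supply in S phase, had the lowest fitted change of the 47 genes. It lies on chromosome 12 from 24708254 to 24714146. Its normalized counts were 10.9, 12.8, 28.2 and 8.77 in IRKO, against 139 and 90 in Ctr, or 15.2 ± 8.83 (SD, n = 4) and 115 ± 35 (SD, n = 2), a 7.57-fold lower mean in IRKO (−2.94 ± 0.455, adjusted p = 0.000612). Even IRKO replicate 3, the highest of its group, was far below both Ctr libraries. Rrm1, the large subunit, had 151, 128, 185 and 163 in IRKO, against 385 and 344 in Ctr (−1.22 ± 0.174, adjusted p = 0.000377). Tyms, which makes thymidylate, averaged 102 ± 14.8 in IRKO and 132 ± 24.3 in Ctr, and Tk1, which salvages thymidine, 21.5 ± 16.5 in IRKO and 38.6 ± 12.2 in Ctr (SD, n = 4 and 2). Neither passed the test, and Tk1 ran from 5.91 in IRKO replicate 2 to 44.7 in replicate 3.

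Pcna, the sliding clamp of replicative polymerases, which also serves DNA repair, had 730.0, 859, 640.2 and 601 normalized counts in IRKO, against 1156 and 1168 in Ctr (−0.73 ± 0.151, adjusted p = 0.0030). It was one of the S phase genes in which IRKO replicate 3 was not the highest of its group.

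The 6 subunits of the MCM helicase act as 1 ring, but their changes differed. Mcm4 had 163, 119, 177 and 133 normalized counts in IRKO, against 287 and 313 in Ctr (−1.03 ± 0.189, adjusted p = 0.0016). Mcm7 had 218, 223, 304 and 263 in IRKO, against 456 and 364 in Ctr (−0.70 ± 0.176, adjusted p = 0.0081), and its call was lost without Ctr replicate 1 (−0.54, adjusted p = 0.0828). Both subunits had all IRKO values below both Ctr values. Mcm2 had 115, 60.1, 139 and 86.7 in IRKO, against 144 and 120.1 in Ctr (−0.46 ± 0.309, adjusted p = 0.235). Mcm5 had 66.4, 62.1, 106 and 83.8 in IRKO, against 144 and 92.9 in Ctr (−0.57 ± 0.275, adjusted p = 0.107). In both, IRKO replicate 3 was above Ctr replicate 2 and the other 3 IRKO libraries were below both Ctr libraries. Mcm6 changed by −0.18 ± 0.294 and Mcm3 by 0.47 ± 0.196 (adjusted p = 0.622 and 0.0649), Mcm3 being the only subunit with a positive value, which turned to −1.14 with libraries scaled to the microglia markers. Differences between subunits were not tested.

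Neither loading factor passed the test, and Cdc6 had few reads. Cdc6 had 5.94, 5.91, 16.5 and 5.84 normalized counts in IRKO, against 15.7 and 20.3 in Ctr (−1.12 ± 0.540, adjusted p = 0.106). In 3 IRKO libraries Cdc6 was at 6 reads each, and replicate 3 was at the level of the Ctr libraries. Cdt1 averaged 61 ± 8.04 in IRKO and 66.4 ± 15.9 in Ctr (SD, n = 4 and 2, adjusted p = 0.718).

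**Figure D3:**
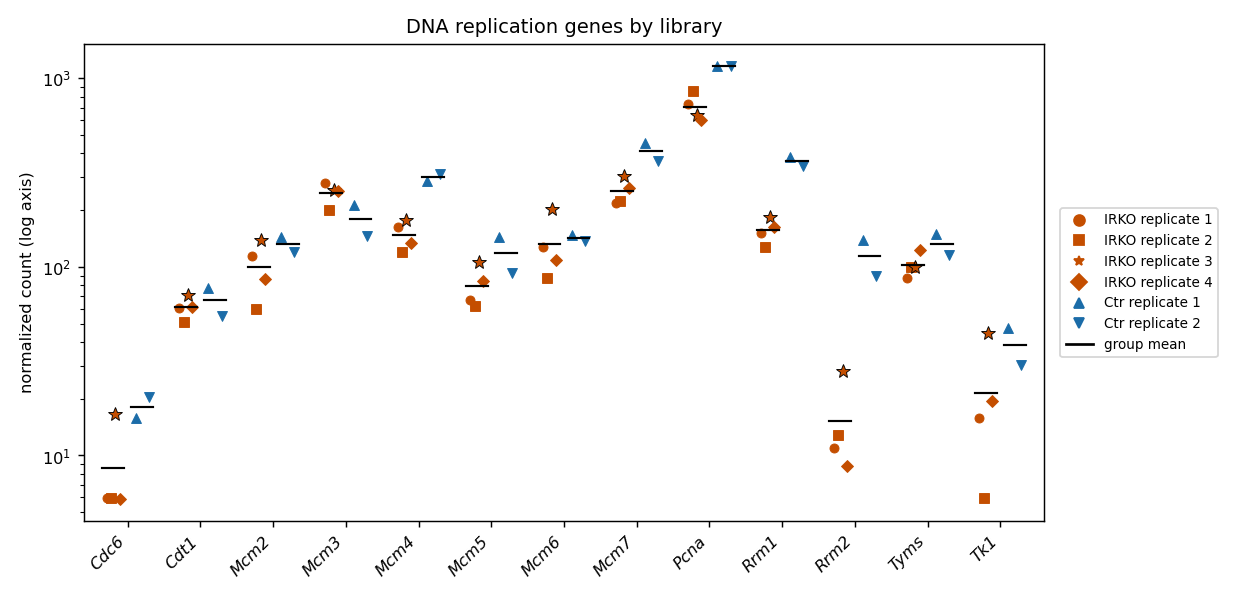
Normalized counts (log axis) of the 13 S phase genes in each library, IRKO left of Ctr, with black bars for group means. Rrm2 has the widest gap between the groups, and the star for IRKO replicate 3 is the highest IRKO point in 10 of the 13 genes.

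In G2 and M phase most genes did not pass, among them Mki67, the usual proliferation marker, and the cyclin partners of Cdk1. Of 20 tested members 6 fell (Cdk1, Cdc20, Aurka, Aurkb, Tpx2 and Ube2c), 0 rose and 14 did not pass, with a median log2 change of −0.99. The falls make 30% of those tested, a share near the 29% of all genes. At an unadjusted p under 0.05, 9 fell and 0 rose by limma, and 7 fell and 0 rose by each of edgeR and DESeq2. Without IRKO replicate 3, 11 fell, the added genes being Mki67, Top2a, Ccna2 (−1.16), Ccnb1 (−2.16) and Plk1 (−1.32). Without Ctr replicate 1, which leaves a lone Ctr library assumed to vary like the IRKO ones, the calls of this phase were lost. That omission removes the higher Ctr library and also leaves 1 Ctr sample. Leaving out Ctr replicate 2 leaves 1 Ctr sample too, and the median log2 change of this phase was then more negative than with all libraries. Without Ctr replicate 1 the median was less negative. The direction of this shift thus differed with the Ctr library removed, and the part of the sample number in the lost calls was not tested.

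Mki67, the nuclear protein used to mark dividing cells, lies on chromosome 7 from 135689784 to 135716450. It had 54.5, 24.6, 124 and 51.6 normalized counts in IRKO replicates 1 to 4, against 117 and 69.7 in Ctr (−0.72 ± 0.526, adjusted p = 0.266). IRKO replicate 3 was above both Ctr libraries and the other 3 IRKO libraries were below both. Without replicate 3 the log2 change of Mki67 was −1.12 (adjusted p = 0.0459). Top2a, the topoisomerase that untangles chromosomes before mitosis, had 47.5, 23.7, 125 and 39 in IRKO, against 152 and 92 in Ctr (−1.27 ± 0.547, adjusted p = 0.0756), and −1.72 without replicate 3 (adjusted p = 0.00504).

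Cdk1, the kinase that drives entry into mitosis, had 32.7, 17.7, 47.6 and 31.2 normalized counts in IRKO, against 105 and 74.6 in Ctr (−1.50 ± 0.374, adjusted p = 0.00791). The groups did not overlap. Its cyclin partners did not pass. Ccna2 had 47.5, 25.6, 66.1 and 33.1 in IRKO, against 87.7 and 68.7 in Ctr (−0.92 ± 0.367, adjusted p = 0.0569), also without overlap between the groups. Ccnb1 had 6.93, 4.93, 24.3 and 2.92 in IRKO, against 25.9 and 23.2 in Ctr (−1.63 ± 0.703, adjusted p = 0.0754). For Ccnb1 the 3 other IRKO libraries were far under the Ctr libraries and replicate 3 lay between both Ctr libraries. Ccnb2 averaged 23.2 ± 10.5 in IRKO and 32.8 ± 20.4 in Ctr (SD, n = 4 and 2). Wee1, which holds CDK1 inactive, averaged 159 ± 17.3 in IRKO and 129.5 ± 20.9 in Ctr (0.29 ± 0.179, adjusted p = 0.188, and −1.32 with libraries scaled to the microglia markers).

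Both Aurora kinases and the spindle factor Tpx2 fell, and the Polo kinase did not pass. Aurka, the Aurora kinase of centrosomes, had 11.9, 18.7, 34 and 36 normalized counts in IRKO, against 76.5 and 49.4 in Ctr (−1.38 ± 0.460, adjusted p = 0.029). Tpx2, which activates Aurora A on spindle microtubules, had 32.7, 35.5, 81.6 and 35.1 in IRKO, against 171 and 104 in Ctr (−1.62 ± 0.391, adjusted p = 0.00681). In both genes every IRKO library was below both Ctr libraries. Aurkb, the Aurora kinase of the chromosomal passenger complex, had 5.94, 3.94, 7.77 and 12.7 in IRKO, against 48.4 and 17.4 in Ctr (−1.91 ± 0.580, adjusted p = 0.0196). Here replicate 3 was not the highest of the IRKO libraries. Plk1, the Polo kinase, had 11.9, 22.7, 38.9 and 21.4 in IRKO, against 67.5 and 32 in Ctr (−1.06 ± 0.478, adjusted p = 0.0873).

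Of the genes that act at the end of mitosis, Cdc20 and Ube2c fell. Cdc20, an activator of the anaphase-promoting complex, had 20.8, 11.8, 64.1 and 36 normalized counts in IRKO, against 120.4 and 70.7 in Ctr (−1.70 ± 0.572, adjusted p = 0.0303). Ube2c, the ubiquitin-conjugating enzyme of that complex, had 9.91, 9.86, 29.1 and 11.7 in IRKO, against 51.7 and 48.4 in Ctr (−1.81 ± 0.466, adjusted p = 0.00938). Both had no overlap between the groups even with replicate 3 included. Without Ctr replicate 1 the log2 change was −1.32 for Cdc20, −1.76 for Ube2c, −1.26 for Cdk1, −1.26 for Tpx2, −1.07 for Aurka and −1.20 for Aurkb. All 6 thus stayed over 2-fold lower, with adjusted p of 0.0578 (Ube2c) to 0.23 (Aurkb). Cdc20 also lost its call without IRKO replicate 1 (adjusted p = 0.0533), and Aurka without IRKO replicate 2 (adjusted p = 0.0603).

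The 7 tested members of this phase not yet described did not pass. They are Birc5 (survivin, of the passenger complex), Bub1b (spindle checkpoint), the centromere proteins Cenpa, Cenpe and Cenpf, and the mitotic kinesins Kif11 and Kif20a, whose log2 changes lay between −1.25 (Bub1b) and 0.09 (Cenpa). For Kif20a the IRKO values were 9.91, 2.96, 51.5 and 8.77, against 23.6 and 14.5 in Ctr. Cenpa, the centromeric histone, had 24.8, 33.5, 71.9 and 32.1 in IRKO, against 34.9 in both Ctr libraries, and its sign turned without replicate 3 (−0.22) and with libraries scaled to the microglia markers (−1.52). In both genes replicate 3 was above the Ctr libraries and the other 3 IRKO libraries below them.

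**Figure D4:**
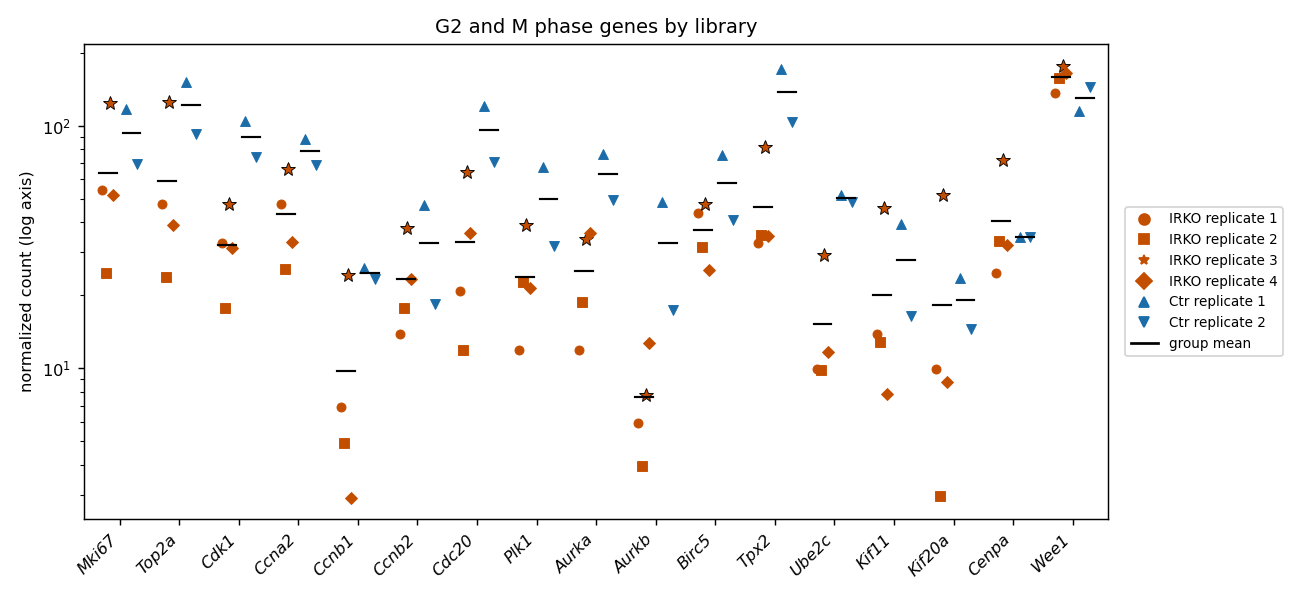
Normalized counts (log axis) of 17 genes of G2 and M phase in each library, IRKO left of Ctr, with black bars for group means. The star for IRKO replicate 3 is the highest IRKO point in all genes shown except Aurka and Aurkb, and Ctr replicate 1 lies above Ctr replicate 2 in all of them except Cenpa, where they coincide, and Wee1.

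The IRKO libraries differed among themselves in the mitotic genes. Summed over the 21 genes of G2 and M phase, the normalized counts were 609, 499.8, 1228 and 666 in IRKO replicates 1 to 4, against 1551 and 1013 in Ctr. IRKO replicate 3 thus lay between the Ctr libraries, and the other IRKO libraries lay below both. It was the highest IRKO library for 19 of the 21 genes, where it was the highest for 26.1% of all genes tested, and it reached at least 1.5 times the mean of the other 3 for 18 of the 21, beside 5.52% of all genes. It was above both Ctr libraries for 6 of the 21, beside 44.1% of all genes. Its ratio to that mean had a median of 2.32 over these genes, with a range from 1.03 (Aurkb) to 7.14 (Kif20a).

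The counts for the other phases were as follows. For S phase, replicate 3 was the highest IRKO library in 10 of 13 genes and at least 1.5 times the others in 5 of 13. Among the G1 cyclins and CDKs it was the highest in 2 of 8 and reached 1.5 times the others in 0 of 8, with ratios from 0.827 to 1.15. Among the E2F-RB genes and CDK inhibitors it was the highest in 3 of 6 and reached 1.5 times the others in 1 of 6, E2f2 (1.89). The difference between phases was not tested. The Ctr libraries also differed in order: Ctr replicate 1 was above Ctr replicate 2 in 20 of 21 genes of G2 and M phase, 10 of 13 of S phase and 5 of 8 of the G1 cyclins and CDKs, beside 52.7% of all genes.

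**Figure D5:**
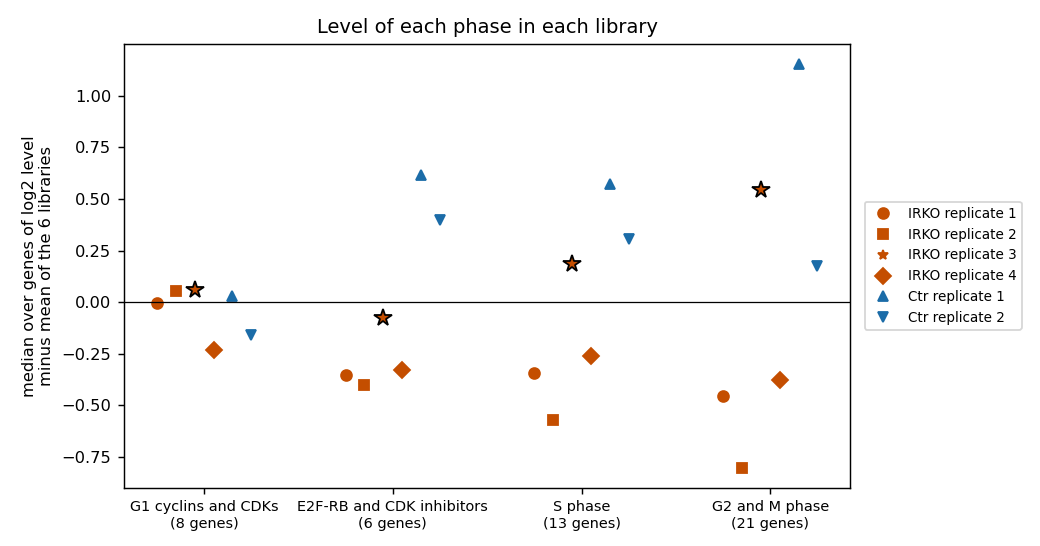
For each library, the median over the genes of a phase of log2(normalized count + 1) minus the gene's mean over the 6 libraries; circles, squares, stars and diamonds are IRKO replicates 1 to 4 and triangles are Ctr replicates 1 and 2. In G2 and M phase IRKO replicate 3 is at 0.54, between Ctr replicate 1 at 1.15 and Ctr replicate 2 at 0.18, while the other IRKO libraries lie from −0.80 to −0.38. The median for the G1 cyclins and CDKs is over genes that moved both ways, so it lies near 0 and does not compare the libraries.

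Markers of other cells were set beside these differences, and their part in them was not tested. IRKO replicate 3 had the lowest sum of microglia markers among the IRKO libraries (287260, with 390110 to 405010 in the other 3) and the highest sum of 6 oligodendrocyte markers (62838, with 34107 to 49805 in the other 3 and 25927 to 33652 in Ctr). The sum of 7 oligodendrocyte precursor markers was 5983 in replicate 3 and 4129 to 4586 in the other 3, with 28188 to 31304 in Ctr. Cspg5 made up most of the Ctr sum (24829 and 22316), and without it the sums were 2221 to 3875 in IRKO and 5872 to 6475 in Ctr. The list went both ways: Pdgfra averaged 423 in IRKO and 119.6 in Ctr and Sox10 536 in IRKO and 286 in Ctr, both higher, while Cspg5, Olig1 and Olig2 were lower. Neural progenitor and neuroblast markers did not follow replicate 3: it was the highest IRKO library for 0 of 9, and the sums were 1442 to 2094 in IRKO and 2911 to 3532 in Ctr, with 5 of 9 lower in IRKO and none at 0. The 5 red cell genes, all lower in IRKO, summed to 243.5 to 2132 in IRKO and 75516 to 161620 in Ctr, Ctr replicate 2 being the higher, the reverse of the order of mitotic genes. Of 6 liver genes, Ttr, which in brain is a choroid plexus transcript, had 658, 3716, 11973 and 6543 in IRKO, against 3549 and 66778 in Ctr. The other 5 summed to 8.92 to 36 in IRKO and 587 and 8650 in Ctr, with Serpina3k, Fgb and Gc at 0 in all IRKO libraries. Of 10 neuron markers 8 rose, with sums of 51935 to 67877 in IRKO and 27565 to 36472 in Ctr. Of 5 endothelial markers 3 rose, with sums of 601 to 690.4 in IRKO and 349 to 387 in Ctr. Lymphocyte markers summed to 30.1 to 107 in IRKO and 47.2 to 57.1 in Ctr. Ms4a1, a B cell marker, was at 0 in all IRKO libraries and in Ctr replicate 2, and at 2.25 in Ctr replicate 1. Border macrophage markers summed to 159 to 186 in IRKO and 53.3 to 92.2 in Ctr, of which Mrc1 held 84.5 to 122 in IRKO and 34.9 and 16.5 in Ctr. Mrc1 and Cd163 rose, Pf4 and F13a1 did not pass, and Lyve1 and Ms4a7 were not tested.

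Further genes of the cycle, listed by function from textbook knowledge with earlier results of these data known, also moved in both directions. Of 38 tested genes for origin binding, polymerases and their accessory factors, 21 fell (55.3%, beside 29% of all genes) and 1 rose. Rpa1 and Rpa2, of the single-strand binding complex, fell by 1.47 and 1.16 on the log2 scale, Rfc1, of the clamp loader, by 0.96 and Orc2, of the origin recognition complex, by 0.86. Cdc7, the kinase that fires origins, rose (0.88 ± 0.245, and −0.74 with libraries scaled to the microglia markers), with 93.1, 109, 108 and 117 normalized counts in IRKO, against 75.4 and 43.6 in Ctr, and lost its call without Ctr replicate 2 (adjusted p = 0.133).

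Of 32 tested genes of the spindle, its checkpoint and cytokinesis, 9 fell and 2 rose, and the falls, 28.1%, are near the share of all genes. Ncapd2, a condensin subunit, changed by −1.46 ± 0.211, Pbk, a mitotic kinase, by −2.86 ± 0.535, Cdca8, of the passenger complex, by −1.57 ± 0.338 and Spc25, of the NDC80 complex, by −1.78 ± 0.417 (call lost without Ctr replicate 1, adjusted p = 0.0853). Ncaph, another condensin subunit, and Spc24, the partner of Spc25, rose by 1.34 ± 0.220 and 1.05 ± 0.217, and stood at −0.28 and −0.57 (neither passing) with libraries scaled to the microglia markers. Partners within both complexes thus had changes of opposite sign as deposited. In this list of 38 genes, IRKO replicate 3 was the highest IRKO library for 27, beside 26.1% of all genes tested. It was at least 1.5 times the mean of the others for 20, beside 5.52%. Of the 38 genes, 19 had under 10 normalized counts in at least 1 IRKO library, so such ratios can rest on few reads.

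Of 15 tested factors of the E2F, RB and MYB families, 4 fell (26.7%, near the share of all genes) and 1 rose. E2f5, a repressor-type E2F, changed by −1.83 ± 0.139, Lin52, of the DREAM complex that represses cycle genes in resting cells, by −1.68 ± 0.151, the pocket protein Rbl2 by −1.37 ± 0.156 and E2f6 by −0.63 ± 0.140. E2f3 rose (0.50 ± 0.116, and −1.12 with libraries scaled to the microglia markers). Rbl2 had 389, 355, 307 and 402 normalized counts in IRKO, against 1063 and 829 in Ctr, with no overlap, as for Rb1.

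Of 16 tested CDK inhibitors and G1 modifiers, 4 rose (25%) and 3 fell (18.8%), beside 26.6% and 29% of all genes. Ccng2, an unusual cyclin linked to arrest, rose by 0.73 ± 0.138, Btg2, an antiproliferative factor, by 0.90 ± 0.258 and Fbxw7, which directs cyclin E to destruction, by 0.66 ± 0.213, and these turned to −0.89, −0.72 and −0.96 with libraries scaled to the microglia markers. Btg2 lost its call without Ctr replicate 1 (0.43, adjusted p = 0.176), and Fbxw7 without either Ctr library or IRKO replicate 2 (adjusted p of 0.0586 to 0.0959). Cdkn2a, the locus of p16 and ARF, had 46.6, 22.7, 174 and 11.7 normalized counts in IRKO, against 5.62 and 6.78 in Ctr (2.47 ± 0.863, adjusted p = 0.0355), and lost its call without either Ctr library or IRKO replicate 1 (adjusted p of 0.0597 to 0.127), with a pseudocount of 5 (adjusted p = 0.0503) or with libraries scaled to the microglia markers (adjusted p = 0.273). All IRKO libraries of Cdkn2a were above both Ctr libraries, but they spread widely, with replicate 3 again the highest. Btg1 and Mnat1, of the CDK-activating kinase, fell by 0.50 and 0.60 on the log2 scale, the first losing its call without Ctr replicate 1 or with quantile normalization and the other without Ctr replicate 2 or IRKO replicate 2.

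Of 16 tested checkpoint and CDC25 genes, 4 fell (25%, near the share of all genes) and 0 rose, with a median log2 change of 0.04. At an unadjusted p under 0.05 the rises numbered 2 by limma and by edgeR, and 1 by DESeq2. Gadd45g, a stress-induced gene, changed by −1.47 ± 0.160 and Cdc25b, a phosphatase that activates CDKs, by −0.94 ± 0.171. Brca1, a DNA repair gene, changed by −1.08 ± 0.355, and lost its call without Ctr replicate 1 or any one of IRKO replicates 1, 2 and 4 (adjusted p of 0.0507 to 0.205).

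Some member values carry a limit of annotation. In the RefSeq table of GRCm38.p6 the spans of 13 of the 48 genes overlap another gene of the deposited table, 7 of them members that passed the test: Ccnd1, Ccnd3, Cdk4, Rb1, Mcm7, Cdc20 and Aurka. Whether strand was used in counting is not given in the sources used here, so reads of such neighbours may be shared.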

How the data were processed

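RiboTag precipitates from mouse whole brain were compared between 4 IRKO and 2 Ctr samples. Reads were handled with Bowtie2 and the build GRCm38.p6, per the submitters' processing notes. The sources used here name no counting or normalization tool. The authors deposited a normalized signal for each gene, which the values show to be reads over a single size factor for each library: dividing a library by its lowest nonzero value gave whole reads for 100% of genes, within 0.05 reads.

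Testing was limited to the 14698 of 18887 genes that reached 10 normalized counts in 2 or more samples. Limma 3.58.1 in R 4.3.3 was fitted to log2(value + 1), a pseudocount of 1 that understates changes of low genes, as IRKO minus Ctr with a mean-variance trend, two-sided, with Benjamini-Hochberg adjustment over all tested genes and a threshold of 0.05. Alternatives included DESeq2 1.42.0 and edgeR 4.0.16, both run on reads recovered this way; versions without IRKO replicate 1, where 1 read is worth too nearly 1 normalized count for a formal step test, were added after seeing the data. A chi-square statistic per degree of freedom of 16.8 to 36.9 for pairs within a group showed no duplicated library. On simulated data for this comparison (14550 genes) the fit found 12.5% of the genes given a 1.5-fold change, 60.1% at 2-fold and 93.7% at 4-fold. Unchanged genes made up 8.76% of what it called. The simulation changed only a small part of the genes, whereas 55.6% of genes were called in the data. These shares depend on how many genes change, so they need not hold for this comparison.

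All 48 members were accounted for, with every sample's value given for members that passed and for the defining genes of each phase. From each wider list, the genes named are those past the threshold with the smallest p, at most 4 from the direction with more calls and at most 2 from the opposite one; 1 such gene is not reported here. Members and lists were chosen with earlier results of these data known. Of the 18887 symbols, 18542 matched RefSeq.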

Additional observations from a re-analysis of the deposited data

Results flagged for a closer look

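In 7 of the 48 genes, 1 of the 4 IRKO values lay far from the other 3, by a gap that exceeded Dixon's 95% critical value for a share of the group's range. Chance alone gives about 1 in 20, and 5.42% of all genes tested were so marked. IRKO replicate 3 was the high value in 5 of the 48 (10.4%), beside 0.925% of all genes tested: Cdc6 at 16.5 normalized counts, Kif11 at 45.7, Kif20a at 51.5, Tpx2 at 81.6 and Ube2c at 29.1. IRKO replicate 4 was the low value for Ccnd2, at 589 against 609 to 612 in the other 3, and for E2f1, at 182 against 237 to 242. For Ccnd2 the IRKO libraries span only 22.8 normalized counts, far less than their distance from Ctr. Without IRKO replicate 3, the log2 change was −1.92 for Tpx2, −2.16 for Ube2c, −1.45 for Cdc6 (adjusted p = 0.0338), −1.12 for Kif11 (adjusted p = 0.0944) and −1.38 for Kif20a (adjusted p = 0.0882).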

How the results depend on the processing

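Pseudocounts of 0.5 and 5, no filter and TMM scaling changed no member's direction or side of the threshold. Scaling to the microglia markers put the all-gene median at −1.60 (29 genes higher, 12444 lower), and left 0 members higher and 45 lower (6 G1 cyclins and CDKs, 6 regulators, 13 S phase, 20 G2 and M phase, and 0 G1 rises). In it the changes of Ccnd1 (−1.21), Ccne1 (−1.13), Ccne2 (−0.73), Cdk6 (−0.59), E2f1 (−1.57), Mcm3 (−1.14), Cenpa (−1.52), Wee1 (−1.32), Cdc7 (−0.74), Ncaph (−0.28), Spc24 (−0.57), E2f3 (−1.12), Ccng2 (−0.89), Btg2 (−0.72) and Fbxw7 (−0.96) turned negative. Quantile normalization gave 1 S phase rise, Mcm3. The filter at 50 left 3 falls in G2 and M phase, since fewer genes were tested. With edgeR and DESeq2 the small change of Cenpe turned positive (0.062 and 0.055, and 0.10 and 0.085 without IRKO replicate 1), as did Kif20a without that library (0.18 and 0.16).

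Leaving out 1 library gave 1 to 4 rises and 10 to 26 falls among members: 1 to 4 rises in the G1 cyclins and CDKs, 0 to 1 rises and 4 to 8 falls in S phase, and 0 to 11 falls in G2 and M phase. Over omissions of any 1 library, Ctr ones included, changes that did not pass crossed 0 for Cdk2 (−0.27 to 0.00024), Cdt1 (−0.35 to 0.13), Ccnb2 (−1.09 to 0.23), Cenpe (−0.36 to 0.24), Cenpf (−0.77 to 0.042), E2f1 (−0.075 to 0.17) and Cenpa (−0.22 to 0.28), the first 5 positive without Ctr replicate 1. The replicate block gave 26 falls among members, 5 of them regulators and 11 in G2 and M phase, and −0.27 for Cenpa. Among all genes, 3691 of 14698 fell in the block. Numbers 3 and 4 occur only in IRKO, so the change in the block rests on replicates 1 and 2 of each group. Shared replicate numbers were not found to pair the samples: deviations from group means correlated at −0.082 for number 1 and 0.079 for number 2. The cause of these differences was not tested. Many mitotic genes hold few reads, and IRKO replicate 3 also stands apart in them; how much each sets their error was not tested.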
